A study of Homo sapiens with 6 samples.

Results

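S phase and DNA replication genes were examined in L428, an established human Hodgkin lymphoma cell line, with BATF3 knocked down by siRNA or with a negative control siRNA. The 48 genes form a chosen list of replication, nucleotide supply and chromatin assembly genes, and all 48 had a probe set of their own among the 18244 genes measured. Each gene was represented by its single-gene probe set of highest mean level across all 6 arrays, which is a rule that does not use the difference between the siRNAs. The BATF3 siRNA group and the control siRNA group each held 3 arrays, numbered 1 to 3 in the labels. All cells received 3 µg of siRNA by nucleofection, a form of electroporation, and were cultured for 48 hours before total RNA was extracted. The study used 1 siRNA against BATF3 in 1 cell line. Nothing in the labels says that the replicates were separate cultures. The p-values therefore reflect only how far these samples varied, and that spread may be technical.

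DNA replication starts when the origin recognition complex, CDC6 and CDT1 load the MCM2 to MCM7 helicase onto DNA in G1 phase. Cyclin E with CDK2 and the CDC7 kinase then bring CDC45 and the GINS complex to the helicase, and the polymerases follow with the PCNA clamp and its RFC loader. Many of these genes are transcribed at the G1/S transition by E2F factors with their DP partners, which the retinoblastoma proteins hold back until cyclin-dependent kinases phosphorylate them. The kinase inhibitor p21, encoded by CDKN1A, acts against that step. BATF3 is a basic leucine zipper factor that binds AP-1 sites with JUN proteins. The comparison asks how the transcripts of this machinery stood when BATF3 mRNA was reduced.

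Promoter letters of the list were compared with those of all protein-coding genes. The list was chosen as replication genes, many of which E2F factors are known to drive, so E2F letters are no independent finding. RefSeq promoters of the GRCh38.p14 build, from 250 bases before to 50 after the gene start, were available for 39 of the 48 genes. The E2F octamers TTTCCCGC, TTTCGCGC, TTTGCCGC and TTTGGCGC were searched on both strands, and matches may overlap each other. At least 1 match stood in 20 of the 39 promoters (51.3%), against 703 of 15843 protein-coding promoters in the same table (4.44%). CCAAT, the letters of the box bound by NF-Y, stood in 25 of the 39 (64.1%), against 36.4% of all. The AP-1 letters TGANTCA stood in 1 of the 39, that of GINS1 (2.56%, against 5.75% of all), and the CHR letters TTTGAA of late cell cycle genes in 1, that of RRM1 (2.56%, against 12.1%). These matches are descriptions of letters and say nothing of binding in L428 cells.

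**Figure D1:**
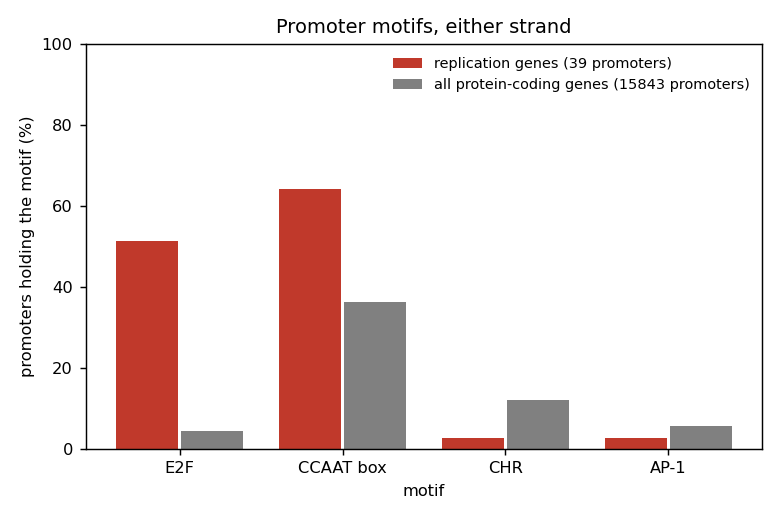
Share of promoters (percent, vertical axis) holding each motif on either strand, for 39 promoters of the replication genes (red) and 15843 promoters of all protein-coding genes (grey). The E2F letters stood in 51.3% against 4.44%, and the AP-1 letters in 2.56% against 5.75%.

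The 120 bases before the gene start are shown for MCM helicase genes, for the genes outside that complex with the smallest p-values in each direction (UNG and TIPIN), and for E2F1. Capitals mark E2F octamers on either strand. All are written 5′ to 3′ on the strand of the gene, with RefSeq coordinates of GRCh38.p14. MCM4 and MCM5 were not in the promoter table.
MCM2, chr3:127598291-127598410, plus strand: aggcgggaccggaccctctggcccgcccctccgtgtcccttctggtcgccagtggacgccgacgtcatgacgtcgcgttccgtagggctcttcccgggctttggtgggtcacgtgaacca
MCM3, chr6:52284743-52284862, minus strand: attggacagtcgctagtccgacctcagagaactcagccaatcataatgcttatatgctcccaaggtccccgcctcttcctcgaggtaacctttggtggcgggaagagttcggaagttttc
MCM6, chr2:135876444-135876563, minus strand: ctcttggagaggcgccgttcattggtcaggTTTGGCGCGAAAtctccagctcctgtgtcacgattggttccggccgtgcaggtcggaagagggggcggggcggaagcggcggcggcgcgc
MCM7, chr7:100101398-100101517, minus strand: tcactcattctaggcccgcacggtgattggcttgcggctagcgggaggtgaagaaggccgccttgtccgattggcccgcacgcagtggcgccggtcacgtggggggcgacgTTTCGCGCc
UNG, chr12:109097477-109097596, plus strand: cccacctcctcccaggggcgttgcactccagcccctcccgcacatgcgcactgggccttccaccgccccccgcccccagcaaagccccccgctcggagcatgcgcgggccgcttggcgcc
TIPIN, chr15:66386718-66386837, minus strand: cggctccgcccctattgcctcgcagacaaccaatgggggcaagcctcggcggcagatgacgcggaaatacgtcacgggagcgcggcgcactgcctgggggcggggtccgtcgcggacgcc
E2F1, chr20:33686386-33686505, minus strand: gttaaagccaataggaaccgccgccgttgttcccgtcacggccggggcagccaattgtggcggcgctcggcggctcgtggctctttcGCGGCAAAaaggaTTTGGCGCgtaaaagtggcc
In these windows MCM6 and E2F1 each hold 2 E2F matches, the pair in MCM6 overlapping each other, and MCM7 holds 1. The windows of MCM2, MCM3, UNG and TIPIN hold 0, although MCM2 and MCM3 each have 2 matches elsewhere in the promoter as searched.

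The arrays read Hodgkin lymphoma markers clearly. All 5 of TNFRSF8 (CD30), IRF4, CCL17, FSCN1 and TRAF1 lay above the highest background probe set of the array in every array (10.62 to 13.26 on the log2 scale). The same held for 0 of 5 T and NK cell markers, 0 of 5 fibroblast and epithelial markers, 1 of 5 myeloid markers (CD68) and 2 of 4 measured B cell markers (CD79B and PAX5). BATF3 mRNA, the targeted transcript, read 10.87, 10.76 and 10.69 after BATF3 siRNA, against 11.89, 12.08 and 11.94 after control siRNA. On the log2 scale BATF3 fell by 1.20 (SE 0.095, limma adjusted p = 0.00673), a call lost when BATF3 siRNA replicate 3 or control siRNA replicate 2 was left out. It was also lost with the array background as a covariate (change −1.11, adjusted p = 0.250), and the adjusted p ran from 3.82e-05 to 0.250 over the alternatives. Background probe sets holding 20 to 25 G or C bases averaged 6.49, 5.92 and 5.98 on the BATF3 siRNA arrays 1, 2 and 3. On the control arrays they averaged 6.46 to 6.49. The array background thus moved in part with the siRNA. Of the BATF3 siRNA arrays only replicate 1 had a background like that of the controls. Changes fitted with this covariate, for any gene, therefore rest mainly on that array set against the controls.

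None of the 48 replication genes passed the threshold of an adjusted p under 0.05 in limma over all genes, where 3 of 18244 genes (0.0164%) did. The adjusted p-values of the 48 ran from 0.539 to 0.999. At an unadjusted p under 0.05 there were 4 members, 3 lower (MCM5, UNG and MCM2) and 1 higher (TIPIN), or 8.33% of the list. Over all genes the share was 7.15%, with 3.42% lower and 3.73% higher, so that of the list is close to the background. This split was 624 lower and 680 higher genes as deposited, and 483 lower and 804 higher with median centring, which left 2 members lower and 1 higher. The count was 1 without BATF3 siRNA replicate 2, 2 without control siRNA replicate 1 or control siRNA replicate 3, and 7 with array weights. With the array background as a covariate it was 1, a lower gene that is none of the 4 named here.

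The change, given throughout as the log2 level after BATF3 siRNA minus that after control siRNA, had a median of −0.0061 over the 48 genes, against −0.0027 over all genes. It was below 0 for 27 genes (56.3%, against 51.0% of all genes) and above 0 for 21. Both the median and the majority depend on scaling, since median centring gave a median of 0.015 with 23 genes below 0. The median over all genes moved as well, to 0.019, so the list did not shift against the other genes. The members' changes spanned −0.33 (MCM5) to 0.23 (TIPIN). For 40 of the 48 genes the change was smaller than the range of the 3 control arrays (83.3%, against 82.9% of all genes).

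The 95% confidence interval of the change lay inside 1.5-fold in either direction for 48 of 48 members, where this held for 94.5% of all genes. These intervals are on the scale of the deposited values and do not show that the levels were equal. Members were measured with a median SE of 0.092, against 0.11 over all genes. A change in the number of cells in S phase and a change in RNA per cell could not be told apart in RNA from whole cultures.

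**Figure D2:**
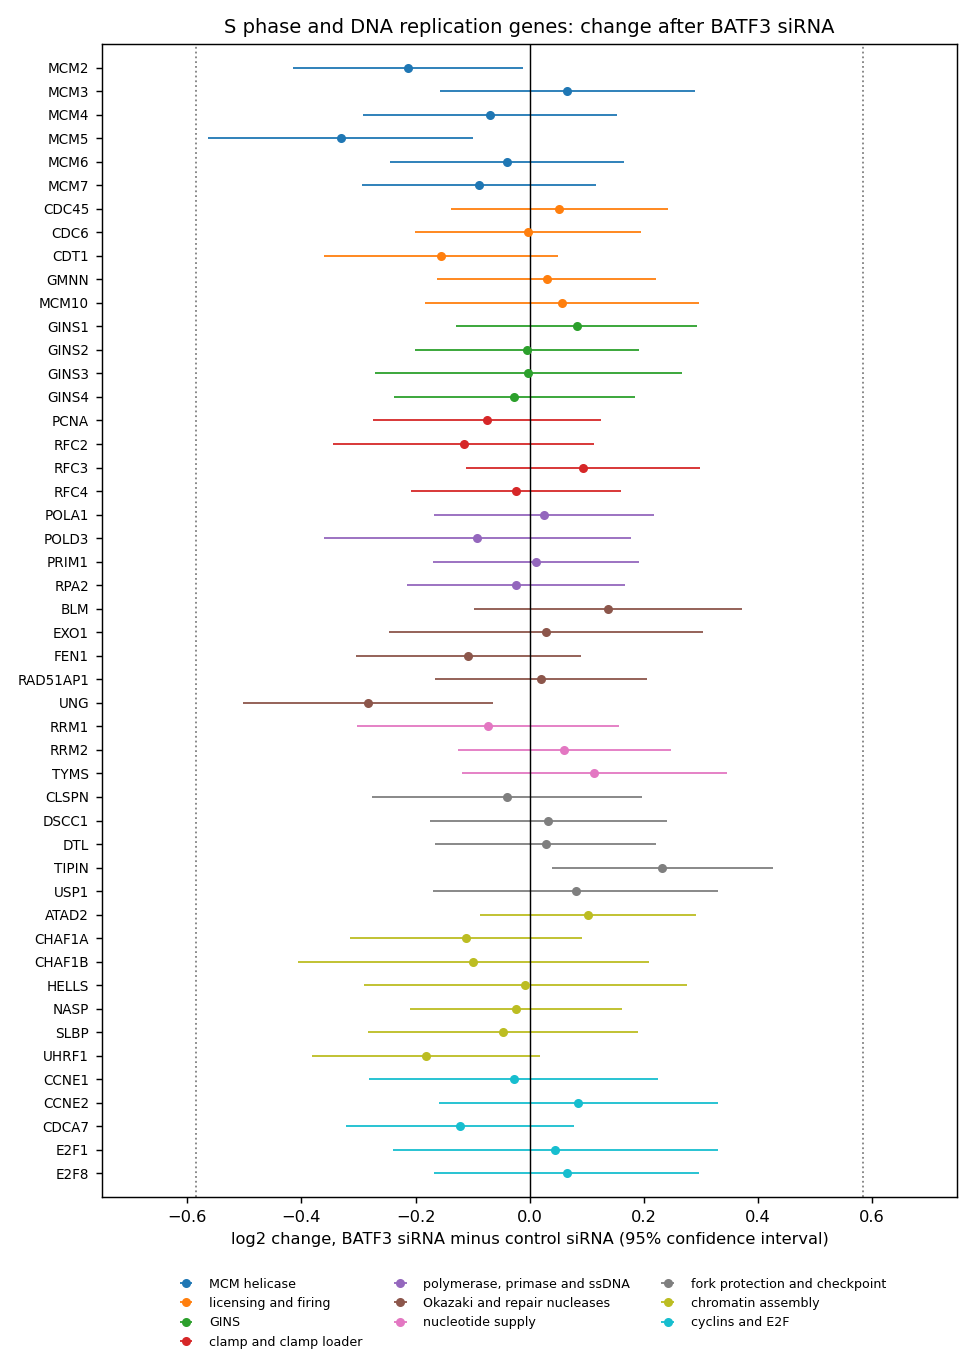
Change in log2 expression (BATF3 siRNA minus control siRNA, horizontal axis) of the 48 replication genes, coloured by role, as points with 95% confidence intervals from limma. Dotted lines stand at 1.5-fold in either direction, and no interval crosses them; the points run from −0.33 for MCM5 to 0.23 for TIPIN.

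The 3 arrays of each siRNA did not overlap for 9 members, 6 lower and 3 higher after BATF3 siRNA (18.8%). Over all genes the share was 12.1%, with 5.78% lower and 6.36% higher. The 6 lower genes were MCM2, MCM5, UNG, UHRF1, CDT1 and CDCA7, and the 3 higher were TIPIN, ATAD2 and RRM2. Their differences ran no larger than 0.33 in either direction on the log2 scale.

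The MCM2 to MCM7 helicase unwinds DNA ahead of the fork as a ring of 6 related ATPase subunits. The median change of the 6 genes was −0.079, and 5 were below 0 (3 to 6 below 0 over the alternatives, with medians of −0.17 to −0.047). None passed the threshold (smallest limma adjusted p = 0.539), and 2 of 6 had an unadjusted p under 0.05, both lower (33.3%). Over all genes that share was 7.15%, with 3.42% lower. The 2 genes were MCM2 and MCM5, and MCM5 lay under the highest background probe set.

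MCM5 read 6.57, 6.37 and 6.27 after BATF3 siRNA replicates 1, 2 and 3, against 6.81, 6.65 and 6.75 after control siRNA. All 3 BATF3 siRNA arrays were below all 3 control arrays. BATF3 siRNA arrays averaged 6.40 ± 0.15 and control arrays 6.74 ± 0.078 (SD, n = 3 each). The log2 change was −0.33 (SE 0.10, limma adjusted p = 0.539), or 0.795 of the control level (95% confidence interval 0.676 to 0.934). A two-sided exact permutation test of the 6 arrays gave p = 0.1, which is the lowest value possible with 3 arrays a group. MCM5 had 1 probe set, and it was the only member to lie under the highest background probe set, which it did in all 6 arrays (6.68 to 7.18 in BATF3 siRNA arrays and 7.11 to 7.32 in control arrays). Its lowest values were on BATF3 siRNA replicates 2 and 3, the arrays with the lowest background (5.92 and 5.98). Whether the transcript was detected, and the direction and size of its change, are therefore uncertain. With the array background as a covariate the change was −0.18 (limma adjusted p = 0.999), in a fit that rests mainly on BATF3 siRNA replicate 1. Over all alternatives the change stayed between −0.42 and −0.18, with adjusted p-values of 0.0872 to 1.

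**Figure D3:**
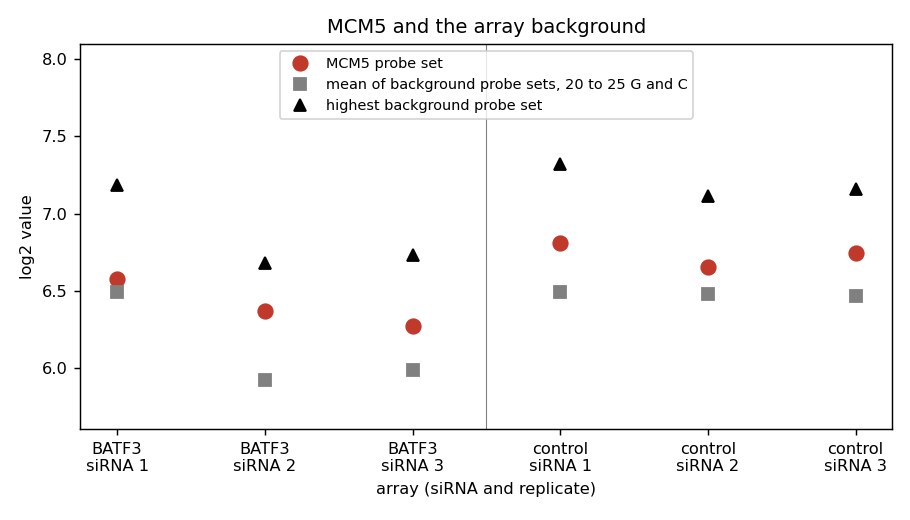
MCM5 level (red circles), mean of the background probe sets holding 20 to 25 G or C bases (grey squares) and highest background probe set (black triangles) on each array, as log2 values (vertical axis), with the BATF3 siRNA arrays left of the control arrays. MCM5 lies under the highest background probe set on all 6 arrays, and the background is lower in BATF3 siRNA replicates 2 and 3 (5.92 and 5.98) than in the other 4 arrays.

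MCM2 read 10.05, 9.95 and 9.90 after BATF3 siRNA, against 10.23, 10.10 and 10.23 after control siRNA. The groups did not overlap, although the highest BATF3 siRNA array and the lowest control array lay close together. Its change was −0.21 (SE 0.090, limma adjusted p = 0.689). All 4 of its probe sets were lower, by amounts from −0.29 to −0.21, and none of these lies near the background. With the array background as a covariate the change was −0.14, and over all alternatives it ran from −0.27 to −0.14 with adjusted p-values of 0.134 to 1.

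MCM7 also had 4 of 4 probe sets below 0, from −0.21 to −0.088, and its representative probe set changed by −0.09 (adjusted p = 0.891). Its arrays overlapped, at 11.56 to 11.72 after BATF3 siRNA and 11.66 to 11.83 after control siRNA. MCM3 was at 11.95 ± 0.11 after BATF3 siRNA and 11.88 ± 0.11 after control siRNA (SD, n = 3 each). Its change was 0.07 with that probe set, while its other 3 probe sets were below 0, down to −0.14. MCM4 was at −0.07 and MCM6 at −0.04, with 2 of 5 and 1 of 3 probe sets above 0. For MCM3, MCM4 and MCM6 the sign depended on the probe set.

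**Figure D4:**
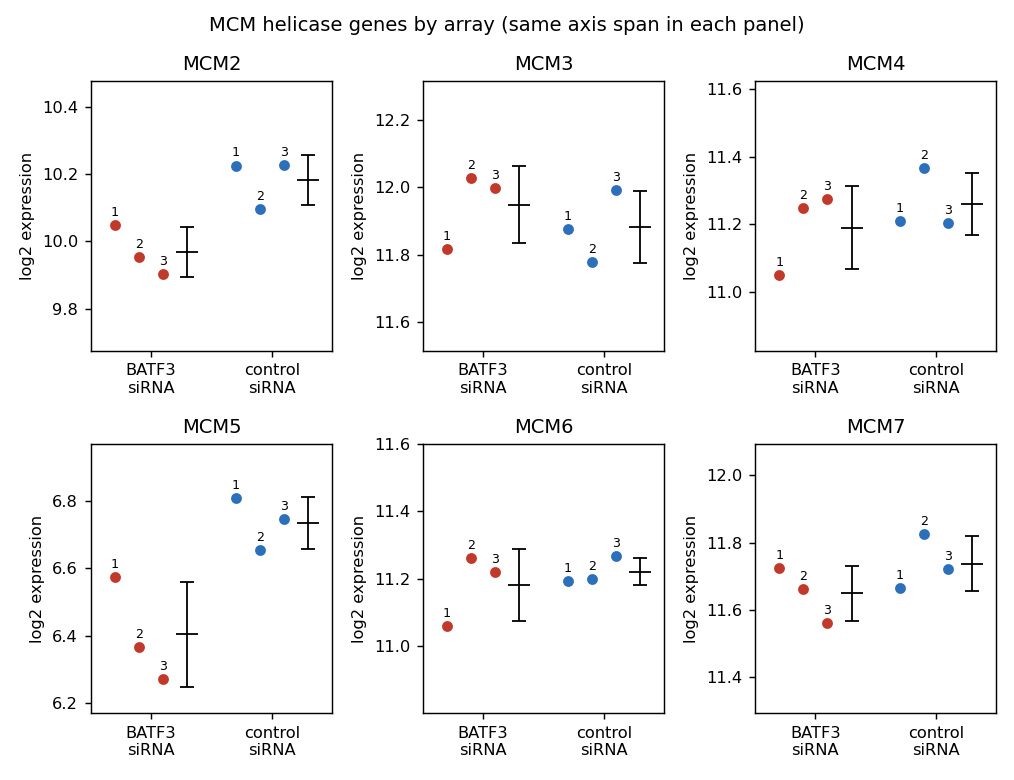
Log2 expression (vertical axis, the same span in each panel) of MCM2 to MCM7 on the 3 BATF3 siRNA arrays (red) and 3 control siRNA arrays (blue), numbered by replicate, with the mean and SD in black. MCM2 and MCM5 do not overlap between the siRNAs, and the other 4 do.

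Genes of origin licensing and firing had no common direction, with 3 of 5 above 0 and a median of 0.030. CDT1, which loads the MCM ring, read 9.92, 9.81 and 9.87 after BATF3 siRNA, against 9.97, 10.14 and 9.96 after control siRNA. The groups were apart by less than the spread within the controls. CDT1 changed by −0.16 (SE 0.091, limma adjusted p = 0.804), and its 3 probe sets were all below 0. Geminin, encoded by GMNN and the inhibitor of CDT1, was at 11.02 to 11.15 after BATF3 siRNA and 11.01 to 11.05 after control siRNA, which overlap. CDC6, the partner of CDT1, was at 11.48 to 11.66 after BATF3 siRNA and 11.53 to 11.58 after control siRNA. CDC45, the helicase cofactor, was at 9.95 to 10.01 after BATF3 siRNA and 9.88 to 9.99 after control siRNA. MCM10, which activates the loaded helicase, changed by 0.06 (SE 0.11), with control siRNA replicate 2 the lowest array at 11.64 and control siRNA replicate 1 the highest at 11.98.

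GINS is the 4-subunit cofactor of the MCM helicase. The median change of its genes was −0.0035, but 0.095 with array weights and 0.078 without control siRNA replicate 2, where 4 of 4 were above 0. GINS1 changed by 0.08, GINS4 by −0.03, GINS2 by −0.0045 and GINS3 by −0.0025, with limma adjusted p-values from 0.907 to 0.999 and 0 of 4 groups apart. GINS2 read 10.90, 10.76 and 10.74 after BATF3 siRNA, against 10.79, 10.83 and 10.81 after control siRNA. GINS3 had the widest spread of the 4 within the controls (8.27, 8.62 and 8.22), against 8.27, 8.44 and 8.40 after BATF3 siRNA.

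PCNA, the sliding clamp that holds polymerases on DNA, read 11.54, 11.66 and 11.59 after BATF3 siRNA, against 11.62, 11.76 and 11.63 after control siRNA. The groups overlapped, and its change was −0.07 (95% confidence interval −0.27 to 0.13). The RFC subunits load this clamp. RFC2 was at −0.12, RFC3 at 0.09 and RFC4 at −0.02 (median −0.024, adjusted p-values from 0.865 to 0.971). RFC2 was highest in control siRNA replicate 2, at 9.43, while its other 5 arrays ran from 9.07 to 9.24.

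Among the polymerase and primase genes POLD3, a subunit of polymerase delta, changed by −0.09. It read 8.26 in BATF3 siRNA replicate 1 and 8.58 to 8.71 elsewhere, so that array alone is low. PRIM1, the catalytic primase subunit, hardly varied, at 11.64 to 11.67 after BATF3 siRNA and 11.64 to 11.66 after control siRNA. POLA1, the catalytic subunit of polymerase alpha, was at 10.25 to 10.36 after BATF3 siRNA and 10.22 to 10.33 after control siRNA. RPA2, a subunit of the single-stranded DNA binding complex, was at 10.57 to 10.68 after BATF3 siRNA and 10.60 to 10.68 after control siRNA. All 3 overlapped between the siRNAs.

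UNG, the glycosylase that removes uracil from DNA, read 8.62, 8.42 and 8.54 after BATF3 siRNA, against 8.73, 8.93 and 8.77 after control siRNA. All BATF3 siRNA arrays were below all control arrays. The change was −0.28 (SE 0.098, limma adjusted p = 0.602), or 0.822 of the control level (95% confidence interval 0.705 to 0.957). Its other probe set was at −0.14. With the array background as a covariate the change was −0.19, and over all alternatives it ran from −0.33 to −0.19.

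FEN1, the flap endonuclease that trims Okazaki fragments, changed by −0.11, with 3 of 3 probe sets below 0 and overlapping groups (adjusted p = 0.853). BLM, a helicase that resolves recombination intermediates, changed by 0.14 (adjusted p = 0.845). The exonuclease EXO1 was at 10.11 to 10.43 after BATF3 siRNA and 10.14 to 10.46 after control siRNA. RAD51AP1, a DNA repair gene, was at 10.08 to 10.16 after BATF3 siRNA and 10.07 to 10.12 after control siRNA. Repair genes of the list therefore showed no common direction (2 of 5 below 0, median 0.021).

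Of the 3 nucleotide supply genes 2 were above 0. Thymidylate synthase (TYMS), which makes dTMP, read 12.50, 12.51 and 12.49 after BATF3 siRNA, against 12.50, 12.19 and 12.46 after control siRNA. Control siRNA replicate 2 alone was low, and the change of 0.11 (adjusted p = 0.869) is smaller than the range of the controls. The other TYMS probe set was at −0.049, so the sign depended on the probe set. The ribonucleotide reductase subunit RRM2 was at 12.29 to 12.31 after BATF3 siRNA and 12.18 to 12.27 after control siRNA, groups that did not overlap by a small margin. The larger subunit RRM1 was at 9.88 to 10.05 after BATF3 siRNA and 9.88 to 10.14 after control siRNA, which overlap.

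TIPIN, which with TIMELESS stabilises stalled forks, was the highest of the 48 changes. It read 9.43, 9.57 and 9.43 after BATF3 siRNA, against 9.23, 9.26 and 9.25 after control siRNA. The groups did not overlap, and the controls lay close together. The change was 0.23 (SE 0.086, limma adjusted p = 0.622), or 1.18 times the control level (95% confidence interval 1.03 to 1.34). Its other probe sets disagreed, at 0.13 and −0.084, and the mean over its probe sets gave 0.094.

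The other checkpoint and fork genes overlapped between the siRNAs. CLSPN, which links stalled forks to CHK1, was at 8.29 to 8.41 after BATF3 siRNA and 8.24 to 8.57 after control siRNA. DTL, a substrate adaptor of the ubiquitin ligase that degrades CDT1, averaged 8.94 ± 0.059 after BATF3 siRNA and 8.91 ± 0.060 after control siRNA (SD, n = 3 each). USP1, which deubiquitinates PCNA, was at 10.07 to 10.34 after BATF3 siRNA and 10.01 to 10.28 after control siRNA. DSCC1, part of an alternative clamp loader, was at 10.10 to 10.20 after BATF3 siRNA and 10.00 to 10.21 after control siRNA.

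Chromatin assembly genes were below 0 for 6 of 7 members, with a median of −0.047 (4 to 6 of 7 below 0 over the alternatives, with medians from −0.12 to −0.0069). The CAF-1 subunits, which place histones H3 and H4 behind the fork, were at −0.11 for CHAF1A and −0.10 for CHAF1B (limma adjusted p = 0.853 and 0.924). CHAF1A read 10.19, 10.27 and 10.21 after BATF3 siRNA, against 10.25, 10.45 and 10.31 after control siRNA. These overlap, and all 3 probe sets of CHAF1A were below 0 by nearly the same amount (−0.11 to −0.10). CHAF1B was low in BATF3 siRNA replicate 3 (8.01), and its other 5 arrays ran from 8.20 to 8.57.

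UHRF1, which brings DNA methylation to newly made strands, read 10.02, 9.96 and 9.88 after BATF3 siRNA, against 10.13, 10.07 and 10.20 after control siRNA. The groups did not overlap, with a change of −0.18 (SE 0.089, limma adjusted p = 0.736). Another of its 3 probe sets was at 0.12, so they disagree in sign. ATAD2, a bromodomain ATPase of chromatin, changed by 0.10 (adjusted p = 0.855) with groups that did not overlap. Histone chaperone NASP was at 11.57 to 11.65 after BATF3 siRNA and 11.59 to 11.66 after control siRNA. The histone mRNA binding protein gene SLBP was at 9.99 to 10.05 after BATF3 siRNA and 9.91 to 10.25 after control siRNA. HELLS, a chromatin remodeller, was at 10.01 to 10.19 after BATF3 siRNA and 9.89 to 10.36 after control siRNA. The last 3 genes overlapped.

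The E2F and cyclin E genes of the list overlapped between the siRNAs, while CDCA7, grouped with them here, did not. E2F1, the activator of G1/S genes, read 8.54, 8.69 and 8.57 after BATF3 siRNA, against 8.31, 8.81 and 8.54 after control siRNA. It changed by 0.04 (95% confidence interval −0.24 to 0.33), and the controls held both the lowest and the highest array. E2F8, a repressor, changed by 0.07, CCNE1 by −0.03 and CCNE2 by 0.09, with adjusted p-values from 0.917 to 0.975. The other probe sets of E2F8 were at 0.34 and 0.40, and that of CCNE2 at 0.35. The mean over probe sets gave 0.27 for E2F8 (limma adjusted p = 0.488) and 0.22 for CCNE2 (limma adjusted p = 0.670), so the size for both genes depended on the probe set. These cyclin E genes encode the partners of CDK2 at S phase entry. CDCA7, a chromatin factor and partner of HELLS, was at −0.12 (adjusted p = 0.843), with 11.33 to 11.42 after BATF3 siRNA and 11.44 to 11.60 after control siRNA.

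Control siRNA replicate 2 held the highest or lowest of the 6 values for 27 of 48 members (56.3%), and for 46.1% of all genes. The median deviation of the 48 genes from their control mean was −0.019, 0.031 and −0.0063 on BATF3 siRNA arrays 1, 2 and 3. On control arrays 1, 2 and 3 it was −0.034, 0.048 and −0.014. The 3 BATF3 siRNA values thus lay inside the range of the control values.

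Several probe sets were present for 38 members. For 20 of these all probe sets had the same sign, 12 below 0 and 8 above, and for 18 the sign was mixed. The 12 genes with every probe set below 0 were MCM2, MCM7, UNG, CDT1, FEN1, CHAF1A, PCNA, CDCA7, POLD3, CDC6, HELLS and RRM1. The 8 with every probe set above 0 were ATAD2, CCNE2, DSCC1, E2F8, MCM10, RAD51AP1, RRM2 and USP1. The probe sets of a gene share the same RNA, so they are no replicates.

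Other genes of the replication machinery gave no call either. Of 34 listed, 33 were measured, and 0 passed the threshold in limma, with 2 at an unadjusted p under 0.05 (6.06%, against 7.15% of all genes). Their median change was −0.014, with 18 below 0 and 15 above. The median turned positive under median centring (0.0070), where that over all genes was 0.019. ORC4, a subunit of the origin recognition complex, read 9.34, 9.22 and 9.22 after BATF3 siRNA, against 9.02, 8.95 and 9.01 after control siRNA. It was higher in all 3 BATF3 siRNA arrays, by 0.27 (SE 0.085, adjusted p = 0.556). Its other probe sets were at 0.22 and −0.036, and the mean over its probe sets gave 0.15. ASF1B, a histone chaperone that hands H3 and H4 to CAF-1, read 8.17, 8.13 and 8.18 after BATF3 siRNA, against 8.38, 8.50 and 8.37 after control siRNA. It was lower in all 3, at −0.26 (SE 0.085, adjusted p = 0.569), and its 3 probe sets were all below 0. The ligase gene LIG1 was at −0.20 (6 of 6 probe sets below 0, adjusted p = 0.773) and ORC1 at −0.18 (adjusted p = 0.774), both with overlapping groups.

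Regulators of S phase entry were mostly above 0. Of 18 genes 16 had a positive change, with a median of 0.097, while 0 passed the threshold in limma. Over all genes 8933 of 18244 were above 0, with a median change of −0.0027. Over the alternatives 13 to 17 of the 18 regulators were above 0 and their median ran from 0.053 to 0.15. The list holds both activators and inhibitors of S phase entry, so a shared sign has no single meaning. At an unadjusted p under 0.05 there were 4 regulators, all higher (22.2%). Over all genes the share at that p was 7.15% in either direction and 3.73% higher. The 4 regulators were CDKN1A, E2F2, E2F6 and TFDP2.

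CDKN1A, the p21 gene, read 8.30, 7.71 and 8.07 after BATF3 siRNA, against 7.22, 7.30 and 7.20 after control siRNA. All 3 BATF3 siRNA arrays were above the controls. The change was 0.79 (SE 0.14, limma adjusted p = 0.226), or 1.72 times the control level (95% confidence interval 1.38 to 2.15), and the other probe set was at 0.47. Its control values lay near the highest background probe set (7.11 to 7.32 in control arrays), so the fold is uncertain. E2F2, an activator like E2F1, read 10.39, 10.29 and 10.15 after BATF3 siRNA, against 9.81, 10.02 and 9.90 after control siRNA. It was above the controls in all 3 arrays, by 0.36 (SE 0.10, adjusted p = 0.493), with the other probe set at 0.22.

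TFDP2, a DP partner of E2F factors, read 10.42, 10.36 and 10.40 after BATF3 siRNA, against 10.20, 10.01 and 10.15 after control siRNA. The groups were apart, with a change of 0.27 (SE 0.089, adjusted p = 0.569), and its other probe set was at 0.077. E2F6, a repressor, was at 7.07 to 7.10 after BATF3 siRNA and 6.80 to 6.87 after control siRNA (change 0.25, adjusted p = 0.569). E2F6 was below the highest background probe set on each control array and on BATF3 siRNA replicate 1 (7.07 against 7.18). It was above that probe set only on BATF3 siRNA replicates 2 and 3. Of its 5 probe sets 2 were below 0. MYC, which also drives replication genes, was at 10.59 to 10.67 after BATF3 siRNA and 10.71 to 10.81 after control siRNA (change −0.13, adjusted p = 0.822).

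**Figure D5:**
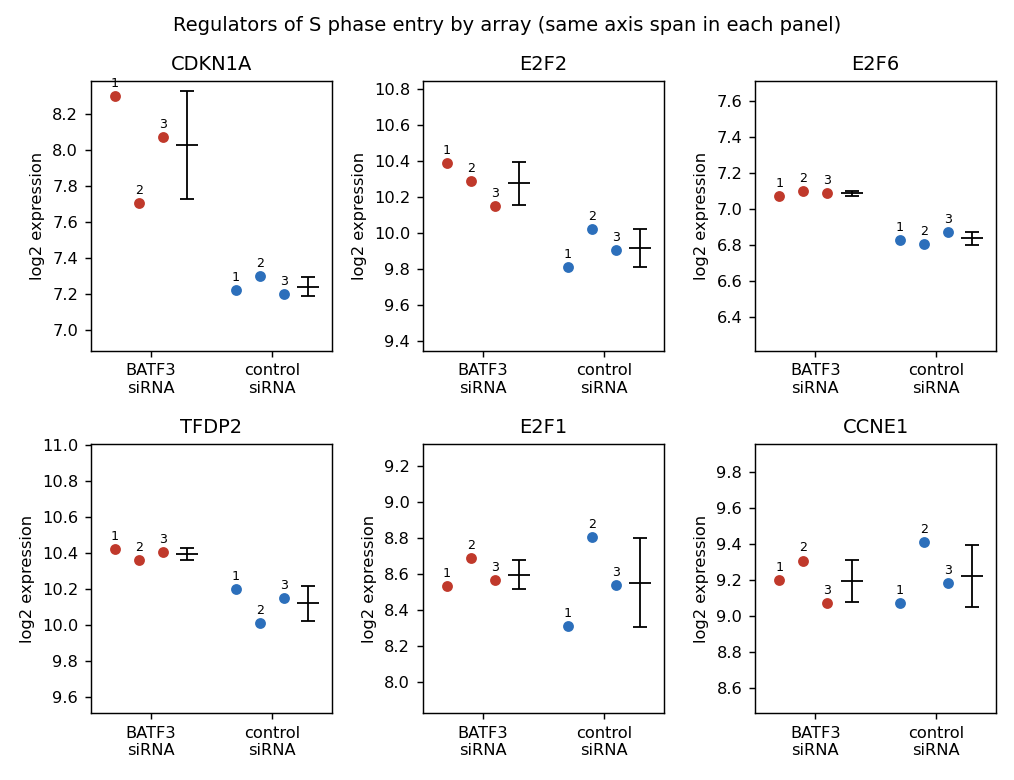
Log2 expression (vertical axis, the same span in each panel) of CDKN1A, E2F2, E2F6, TFDP2, E2F1 and CCNE1 on the 3 BATF3 siRNA arrays (red) and 3 control siRNA arrays (blue), numbered by replicate, with the mean and SD in black. The first 4 genes do not overlap between the siRNAs, and E2F1 and CCNE1 do.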

How the data were processed

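Total RNA of L428 cells was read on Affymetrix PrimeView arrays, 3 per siRNA. The deposited table held 1 log2 value per probe set and array (49495 probe sets). Its base was inferred from the range. The affy package is named in the submitters' processing notes. For the background correction and normalization by the authors, the method is not given in these sources. Normalization hides a shift shared by most transcripts. The platform annotation gave 45278 probe sets a single gene, and 45208 of their identifiers matched RefSeq (GRCh38.p14). Controls and probe sets with several genes were left out. Differences were fitted with limma 3.58.1 in R 4.3.3 (lmFit, eBayes, two-sided, no covariate, 9.30 total degrees of freedom), adjusted by Benjamini-Hochberg over 18244 genes. The fit was tested on simulated data. The number of arrays limits the precision. Apart from comparisons with the background probe sets, levels of different probe sets were not compared. Members, pathway lists and the rule for named genes (complexes, smallest p-values, cyclin E, E2F, PCNA and CDT1) were chosen with earlier results of these data known. Other members are given by levels. Alternatives covered normalization, dim genes, probe set choice, weights, priors, replicate number, array background and leaving out each array.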

Additional observations from a re-analysis of the deposited data

How the results depend on the processing

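No member, other machinery gene or S phase entry regulator was called under any of the 15 alternative limma fits. In the fit without alternatives an adjusted p under 0.1 gave 0 members, while with array weights MCM5 had a limma adjusted p of 0.0872. The members' median stayed within −0.031 to 0.015, and moved by less than the spread between replicates. Over all genes 6 were called among genes above the array medians, 5 with the most variable probe set, 25 with array weights, 12 with an intensity trend and robust prior and 6 at an adjusted p under 0.1. With the array background as a covariate 0 genes were called (1011 at an unadjusted p under 0.05). That fit rests mainly on BATF3 siRNA replicate 1. Leaving out each array gave 0 to 2 calls, with 0 without BATF3 siRNA replicate 3 (852 at an unadjusted p under 0.05) or control siRNA replicate 2 (1446). Same-numbered arrays deviated together with correlations of 0.029, 0.15 and −0.025 across genes, and not every array correlated best with its own number, so the numbers were not taken as pairs. The replicate block called 3 genes in all and 0 members, and 3 members had an unadjusted p under 0.05. Of 615 comparisons of single genes with their reported change, 570 kept their direction and side of the threshold, 3 lost the BATF3 call and 42 had the opposite sign, for members that were not called. The mean of probe sets gave −0.061 for MCM3, 0.027 for GINS4, −0.038 for RFC3, 0.063 for RFC4 and 0.013 for CCNE1. The most variable probe set gave −0.14 for MCM3, 0.14 for MCM4, 0.24 for GINS4, −0.26 for RFC3, 0.13 for RFC4, 0.050 for CHAF1B and 0.054 for CCNE1. Array weights gave 0.0041 for MCM4, 0.13 for GINS3, 0.060 for GINS4 and 0.0031 for CCNE1, and median centring 0.017 for GINS2 and 0.019 for GINS3. The background covariate gave −0.062 for MCM3, −0.011 for MCM10, −0.0041 for GINS1, 0.088 for GINS2, −0.0039 for RFC3, 0.0043 for CHAF1B and −0.026 for E2F1. Leaving out each array, the change ran from −0.11 to 0.00099 for MCM4, −0.080 to 0.020 for MCM6, −0.029 to 0.14 for MCM10, −0.055 to 0.027 for GINS2, −0.078 to 0.12 for GINS3 and −0.089 to 0.035 for GINS4. It ran from −0.18 to 0.029 for CHAF1B, −0.015 to 0.17 for CCNE2, −0.19 to 0.037 for POLD3, −0.075 to 0.17 for E2F1 and −0.10 to 0.066 for CCNE1. The causes were not tested. The 3 arrays a group limit the precision, and MCM5 lies within the array background.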
